A study of Rattus norvegicus with 115 samples.

Results

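Interleukin receptor genes were described here in leukocytes and tumour epithelium sorted from mammary tumours of rats, by treatment of the rat. The members are the rows of a deposited count table whose symbol is Il, a number and r, as in Il7r, and 37 of 17455 rows are described. The pattern takes receptor chains and also a few soluble relatives: Il1rn and Il36rn encode secreted antagonists of IL-1 family receptors, and Il22ra2 encodes a secreted protein that binds IL-22. It does not take shared chains with other names, such as Il6st or Csf2rb, which were followed as a separate list.

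All rats were Sprague Dawley animals given the carcinogen N-nitroso-N-methylurea (NMU), at 50 mg/kg in 1 to 3 injections at 35 to 53 days of age, so no group is free of the carcinogen. Tumours were digested with collagenase and separated by sorting before RNA sequencing. The groups are Vehicle, LY (LY2157299, or galunisertib, a small-molecule inhibitor of the kinase of the TGF-beta receptor TGFBR1), PDL1 (an antibody against PD-L1), PDL1+LY (both agents) and untreated tumours of a separate characterization cohort, which received no drug after NMU. A column of the count table names a rat and a tumour but, for most columns, not the sorted fraction. Columns were therefore classed by 2 genes: Ptprc, which encodes the leukocyte antigen CD45, and Epcam, which encodes an epithelial surface protein.

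Of 107 columns from 36 rats, 44 were classed as leukocyte and 61 as epithelial, while 2 were in neither class. Levels are CPM (the count scaled to a common total per column), and leukocyte columns had at least 300 CPM of Ptprc, epithelial ones under 150 CPM of Ptprc and at least 300 CPM of Epcam. The lowest leukocyte column had 486 CPM of Ptprc, and the highest column below the threshold had 165 CPM. Epcam was at least 381 CPM in epithelial columns and at most 198 CPM in leukocyte columns. The leukocyte columns came from 31 rats (8 Vehicle, 5 PDL1, 5 LY, 6 PDL1+LY, 7 untreated) and the epithelial ones from 32 rats (7, 7, 4, 6 and 8). Total counts ran from 2353564 to 29727437 per column. In 53 of 54 tumours the number of leukocyte columns equalled the number of CD45-labelled samples. The 9 columns that match a single CD45 sample were all leukocyte, while 3 single columns labelled DN and 1 labelled Ep were all epithelial, so this class also holds fractions not sorted as epithelium. Summed CPM of 4 fibroblast markers ran from 13.5 to 74910 over the rats with epithelial columns. Untreated tumours were in batch 1 but for 1 epithelial column, and treated and vehicle rats in batches 2 and 3. No untreated sample is labelled DN, while Vehicle and each treated group hold both DN and Ep samples. For untreated tumours the cohort and the batch therefore cannot be told apart, nor can the sorted fraction in epithelial columns. DN and Ep columns of a rat were summed, and the fraction was not part of the tests below. Within the vehicle leukocyte columns, rats P7 and P6 stood apart: P7 had 16.7 CPM of the macrophage gene Csf1r, the lowest of the 8 rats, and P6 had 212 CPM of the T cell gene Cd3e, also the lowest.

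Interleukin receptors are assembled from a ligand-binding chain and a signalling partner that several receptors share. The common gamma chain, encoded by Il2rg, serves IL-2, IL-4, IL-7, IL-9, IL-15 and IL-21 and signals through JAK kinases and STAT factors, and T and NK lymphocytes depend on it. Receptors of the IL-1 family and of the IL-17 family signal instead through adaptor proteins, and IL-17 receptors are well known for the response of epithelia to T cells.

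The promoters of 4 members are shown because the results below turn on these genes: Il2rg, Il7r and Il21r had their reads in leukocytes, and Il17rc in epithelial columns. Each is the 250 bases before the RefSeq start in the rat assembly GRCr8, read 5′ to 3′ along the gene, with the motifs in capitals.
Il2rg: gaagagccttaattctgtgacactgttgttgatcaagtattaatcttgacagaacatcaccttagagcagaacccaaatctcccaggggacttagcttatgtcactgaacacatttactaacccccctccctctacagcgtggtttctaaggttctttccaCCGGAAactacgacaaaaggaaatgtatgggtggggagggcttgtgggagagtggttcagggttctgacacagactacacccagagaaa
Il7r: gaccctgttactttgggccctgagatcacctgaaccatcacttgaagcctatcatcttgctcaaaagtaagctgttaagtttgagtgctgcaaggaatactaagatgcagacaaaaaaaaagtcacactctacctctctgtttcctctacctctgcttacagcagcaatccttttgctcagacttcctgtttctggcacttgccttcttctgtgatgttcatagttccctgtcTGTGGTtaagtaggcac
Il21r: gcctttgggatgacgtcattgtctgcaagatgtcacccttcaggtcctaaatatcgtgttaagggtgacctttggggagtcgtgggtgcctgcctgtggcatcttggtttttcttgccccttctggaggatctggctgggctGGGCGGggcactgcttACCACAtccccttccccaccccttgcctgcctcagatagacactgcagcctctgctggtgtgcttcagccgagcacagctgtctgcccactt
Il17rc: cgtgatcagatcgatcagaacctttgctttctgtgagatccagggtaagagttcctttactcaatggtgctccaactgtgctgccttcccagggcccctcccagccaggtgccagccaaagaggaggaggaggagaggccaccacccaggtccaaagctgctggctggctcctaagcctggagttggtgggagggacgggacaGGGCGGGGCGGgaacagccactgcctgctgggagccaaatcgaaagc

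These windows lie at chrX:70439001-70439250 (minus strand) for Il2rg, chr2:60204918-60205167 (minus) for Il7r, chr1:189598503-189598752 (plus) for Il21r and chr4:148174378-148174627 (plus) for Il17rc. The letters searched on both strands were CCGGAA, the core of ETS factor sites, TGTGGT, the core of RUNX factor sites, and GGGCGG, the GC box. Il2rg holds CCGGAA with its first base 89 bases before the start, and Il7r holds TGTGGT at 17. Il21r holds ACCACA, which is TGTGGT on the other strand, at 92, and GGGCGG further upstream. Il17rc holds 2 copies of GGGCGG, at 47 and 42, and these copies overlap. Of 33469 RefSeq promoter windows of the same length, 12.6% held CCGGAA, 14.5% TGTGGT and 30.5% GGGCGG on either strand. RefSeq windows were matched for 28 of the 37 members, of which 4, 7 and 18 held these motifs. A match is a description of the letters only.

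The genes of highest CPM were higher in leukocyte columns, and a smaller group was higher in epithelial columns. Because epithelial columns also hold DN fractions and fibroblast RNA, a higher level there does not place a gene in epithelial cells. By median CPM over rats, 15 of 37 members (40.5%) were at least 4-fold higher in leukocyte than in epithelial columns with at least 1 CPM in the higher class, against 6.33% of all genes. In the other direction 5 members (13.5%) were at least 4-fold higher in epithelial columns, against 13.8% of all genes. The remaining 9 members lay within 4-fold, and 8 had a median under 1 CPM in both classes. Because the classes were set by Ptprc and Epcam in the same columns, these levels are a description with no test. In the 27 rats with columns of both classes, 10 members (Il10ra, Il12rb1, Il18r1, Il21r, Il27ra, Il2rb, Il2rg, Il4r, Il6r and Il7r) were higher in leukocyte columns in each rat, beside 3.6% of all genes. Il11ra1, Il17rc and Il17re were higher in epithelial columns in each of these rats, beside 7.39% of all genes. This view within rats was added after the data had been seen. CPM is not corrected for transcript length, so values are set side by side for 1 gene between columns and not between genes.

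**Figure D1:**
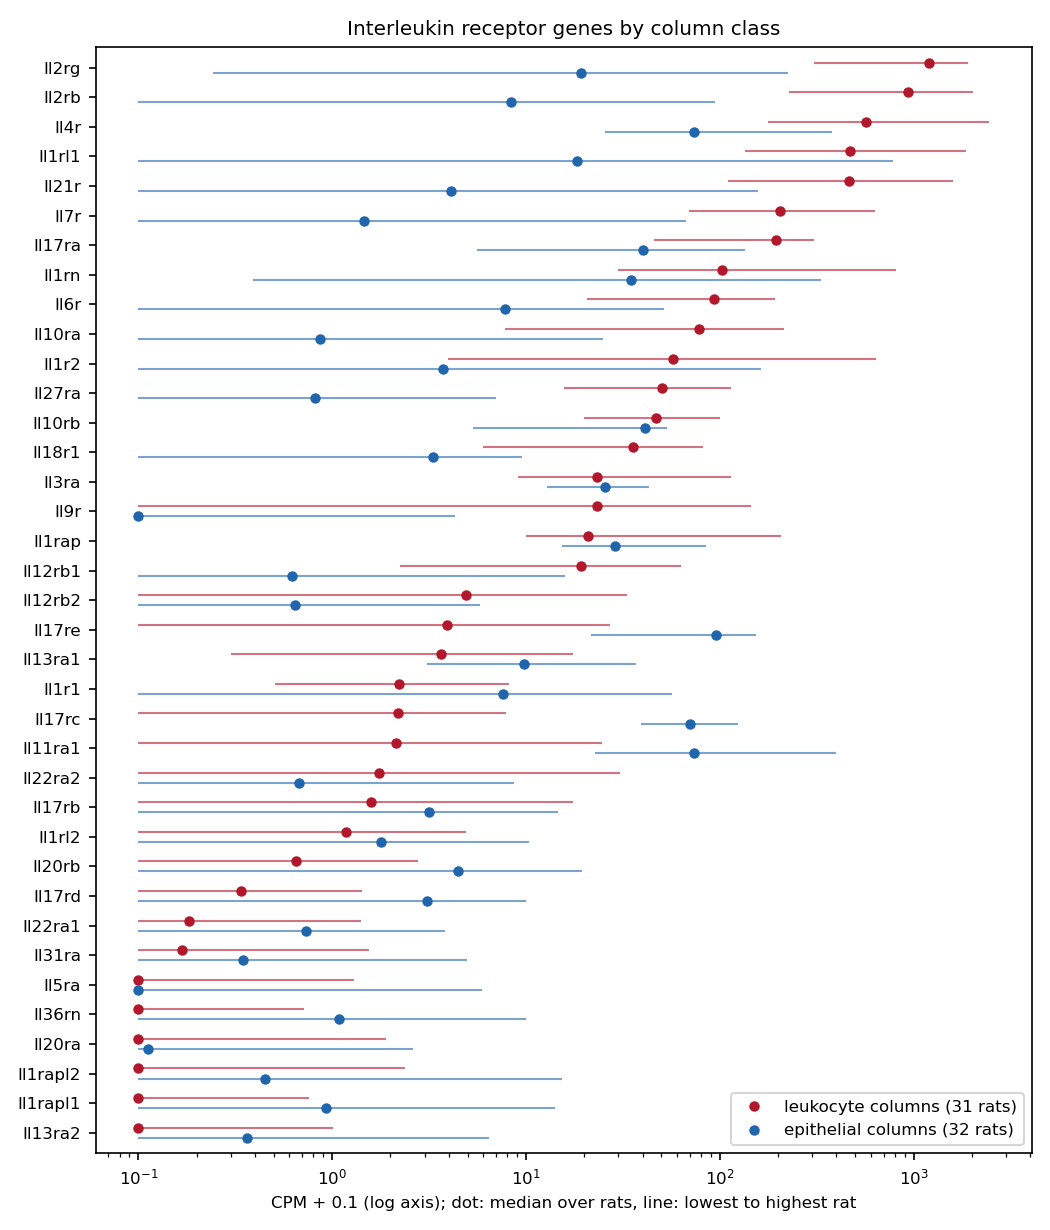
CPM + 0.1 (log axis) of the 37 members over 31 rats with leukocyte columns (red) and 32 rats with epithelial columns (blue), with the dot at the median and the line from the lowest to the highest rat. Il2rg, Il2rb, Il7r and Il27ra in red lie wholly above blue, while Il17rc lies wholly above in blue.

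Chains of the common gamma family led the leukocyte reads. Il2rg, the common gamma chain itself, had a median of 1196 CPM in leukocyte columns (307.8 to 1903) and 19.2 CPM in epithelial columns (0.144 to 225). Il2rb, the beta chain shared by IL-2 and IL-15, had 941 CPM (228 to 2017) against 8.29 CPM (0 to 94.2). Il7r, the IL-7 receptor alpha chain of lymphocytes, had 204 CPM (69.6 to 633) against 1.36 CPM (0 to 67.2). For these 3 genes every leukocyte rat was above every epithelial rat. Il27ra, the IL-27 receptor alpha chain, was the fourth of this kind at 49.9 CPM (15.7 to 114) against 0.715 CPM (0 to 6.91). Of all genes 1.13% lay wholly higher in leukocyte columns and 2.13% wholly higher in epithelial columns.

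Il21r, which binds IL-21 from helper T cells, had 466 CPM (109.9 to 1595) against 4.01 CPM, a 116-fold difference of medians. Its highest epithelial rat, P28 of the PDL1 group, reached 158 CPM and so overlapped the lowest leukocyte rats. Il4r, the IL-4 receptor alpha chain, differed less, at 568 against 73.2 CPM (7.75-fold), and stayed at or above 25.5 CPM in every epithelial rat. Il9r, the receptor for IL-9, had a median of 23.1 CPM in leukocyte columns and 0 in epithelial ones. Among the IL-13 chains, Il13ra1 had 3.54 CPM in leukocyte and 9.68 CPM in epithelial columns, and Il13ra2 had 0 and 0.263 CPM.

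In the IL-1 receptor family, Il1rl1, which encodes the IL-33 receptor ST2 known from mast cells, regulatory T cells and type 2 lymphocytes, had 472 CPM (134.8 to 1870) in leukocyte columns against 18.2 CPM (0 to 783). Il18r1, the IL-18 receptor chain, had 35.5 against 3.21 CPM. Il1r2, a decoy receptor for IL-1 found on neutrophils, had 57.6 against 3.63 CPM, and Il1rn, the secreted IL-1 antagonist, 103.1 against 34.6 CPM. The signalling receptor Il1r1 was low in both, at 2.10 against 7.50 CPM, and its partner Il1rap was alike in both, at 20.9 against 28.7 CPM. Il1rl2, a chain of the IL-36 receptor, had 1.08 against 1.69 CPM. Il1rapl1 and Il1rapl2, known from neurons, had medians of 0 CPM in leukocyte columns and 0.828 and 0.350 CPM in epithelial ones, and Il36rn had 0 and 0.990 CPM.

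The IL-17 receptors divided between the classes. Il17ra, the chain that all IL-17 receptors share, had 194 CPM (45.9 to 307) in leukocyte columns against 40.2 CPM (5.49 to 135). Its partner Il17rc, needed for IL-17A and IL-17F, had 70.3 CPM in epithelial columns (38.97 to 124) against 2.08 CPM (0 to 7.79) in leukocyte columns, with every epithelial rat above every leukocyte rat. Il17re, the chain that binds IL-17C, had 95.7 CPM in epithelial columns (21.5 to 154) against 3.79 CPM (0 to 27.1), so the ranges overlapped only between 21.5 and 27.1 CPM. Il17rd had 2.99 against 0.237 CPM, and Il17rb, the chain for IL-25, had 3.08 against 1.49 CPM.

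Of the receptors that use the gp130 type of chain, Il11ra1, which binds IL-11, had 73.2 CPM in epithelial (22.7 to 398) against 2.04 CPM in leukocyte columns (0 to 24.6), whereas Il6r had 92.8 CPM in leukocyte against 7.68 CPM in epithelial columns. The IL-12 receptor chains Il12rb1 and Il12rb2 had 19.1 and 4.81 CPM in leukocyte against 0.520 and 0.543 CPM in epithelial columns, and Il31ra had medians under 0.25 CPM in both. In the IL-10 group, Il10ra, the ligand-binding chain, had 78.3 against 0.763 CPM, while the shared chain Il10rb had 46.7 against 41.2 CPM. Il20rb was higher in epithelial columns, at 4.36 against 0.551 CPM. Il22ra2 had 1.64 in leukocyte against 0.571 CPM, and Il20ra and Il22ra1 had medians under 0.63 CPM in both classes. Il3ra, the IL-3 receptor alpha chain, had 23.2 in leukocyte against 25.3 CPM in epithelial columns, and Il5ra had a median of 0 in both.

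No member passed the test in leukocyte columns of treated rats. With counts summed per rat and the batch as a covariate (edgeR quasi-likelihood test, Benjamini-Hochberg adjustment over 11932 genes), 0 of the 30 members tested were called in PDL1, LY or PDL1+LY against Vehicle. The background was low too: 0.0335% of genes were called for PDL1, and 0% for LY and for PDL1+LY. The 3 comparisons share the 8 vehicle rats. DESeq2 on the same sums called 1 member for PDL1 (Il17rc, lower), 2 for LY (Il2rb, higher, and Il11ra1, lower) and 1 for PDL1+LY (Il7r, higher), and it called 3.95%, 3.91% and 1.03% of all genes. With 30 members tested, nothing is read from such small counts. On single columns limma voom called 0, 0 and 2 members (Il7r, higher, and Il11ra1, lower), beside 0.136%, 0% and 2.81% of all genes. Without vehicle rat P7, edgeR called 98 genes for PDL1 (0.824%) and 169 for LY (1.42%), among them 0 and 2 members. At an unadjusted p under 0.05, 5 members stood out for PDL1 (2 higher, 3 lower), 6 for LY (4 higher, 2 lower) and 7 for PDL1+LY (5 higher, 2 lower). These are 16.7%, 20% and 23.3% of the members, beside 15.4%, 16.4% and 13.9% of all genes. The members' median log2 fold change was 0.07, 0.27 and 0.45, beside -0.02, 0.02 and 0.02 over all genes. In bulk RNA, fewer cells of a type and less RNA per cell cannot be told apart.

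**Figure D2:**
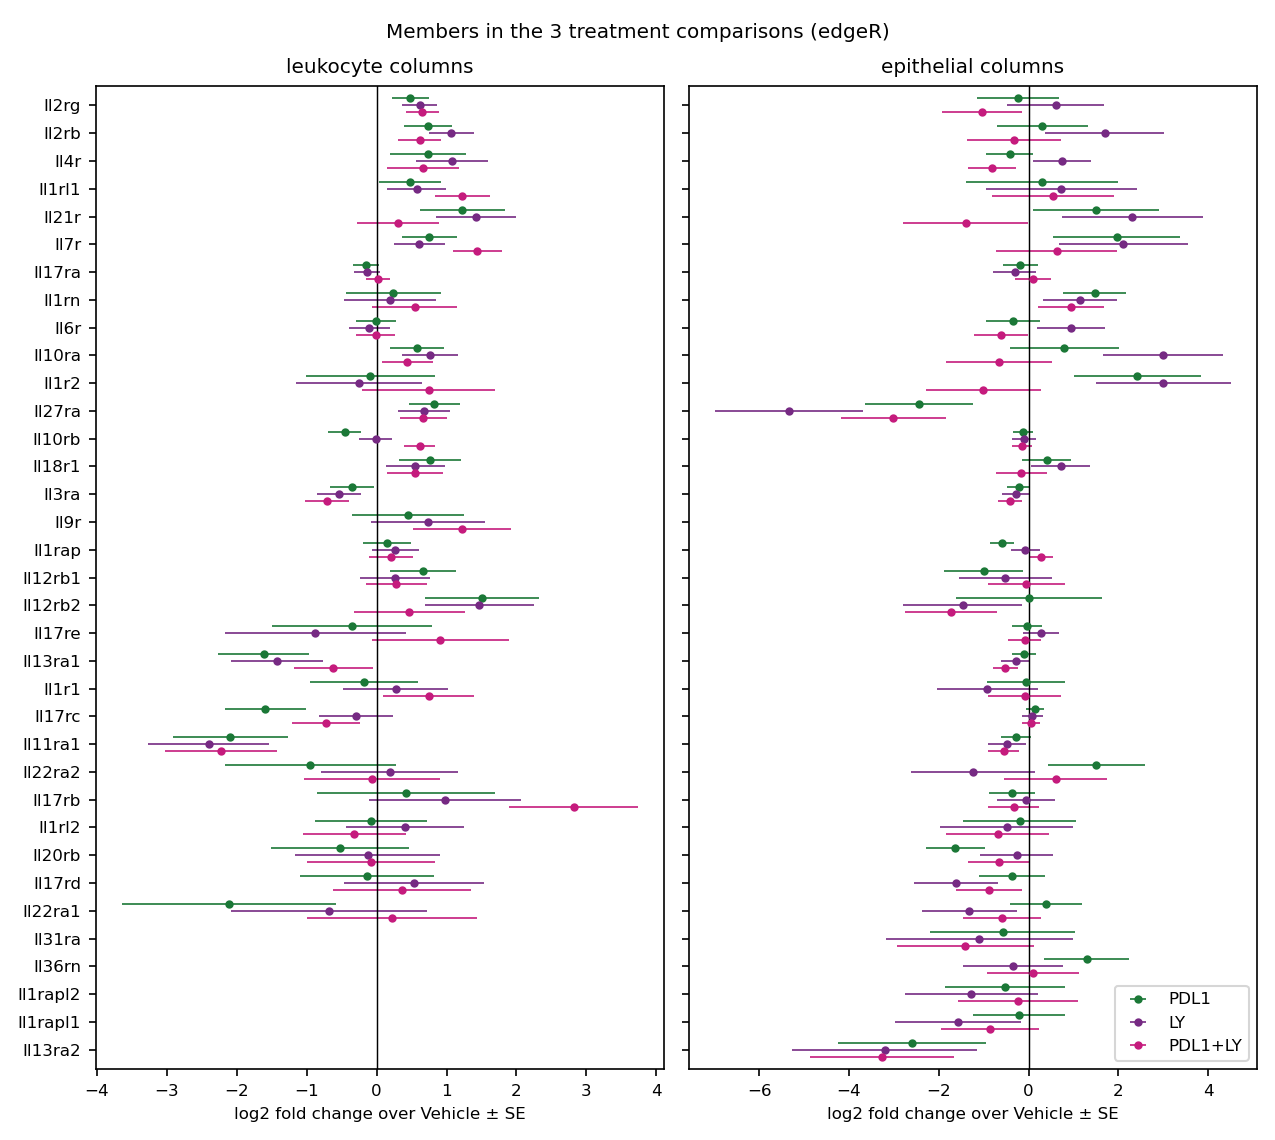
Log2 fold change over Vehicle with its standard error for the members tested in leukocyte (left) and epithelial (right) columns, in the PDL1, LY and PDL1+LY comparisons of an edgeR fit. No member passed the adjusted threshold of 0.05 in any of the 6 comparisons.

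Il7r had the smallest p of all members, in PDL1+LY. Its leukocyte level was 69.6 to 219.8 CPM in the 8 vehicle rats, with a median of 136, and 201.9, 288.4, 359.1, 385.6, 386.4 and 632.6 CPM in the 6 rats given both agents. Only 1 rat given both agents lay below the highest vehicle rat, P7, and the others were above all vehicle rats. The log2 fold change was 1.44 ± 0.34 (SE), with an unadjusted p of 0.000366 and an adjusted p of 0.197 by edgeR. The PDL1 rats had 133.0, 193.7, 231.0, 260.9 and 354.3 CPM, and the LY rats 76.2, 185.0, 220.2, 247.7 and 323.8 CPM, so both groups overlapped Vehicle. Untreated tumours spanned 154 to 481 CPM around a median of 204.

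Il2rb had the smallest p of the members in LY. Vehicle rats had 228 to 1391 CPM with a median of 643, and LY rats 1208, 1271, 1321, 1500 and 2017 CPM. Of the vehicle rats, P7 at 1391 CPM reached into the LY range. The log2 fold change was 1.07 ± 0.32 (adjusted p = 0.139, edgeR), and without P7 it was 1.38 with an adjusted p of 0.0445. For PDL1 the rats had 773.5, 852.4, 903.9, 1367 and 1397 CPM and for PDL1+LY 728 to 1441 CPM (median 1130), with log2 fold changes of 0.73 ± 0.34 and 0.62 ± 0.31.

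Il2rg had 307.8 to 1339 CPM in vehicle rats (median 824). It had 1015, 1117, 1255, 1273 and 1292 CPM in PDL1, 1079, 1364, 1368, 1441 and 1586 CPM in LY, and 1143 to 1903 CPM (median 1320) in PDL1+LY. All treated rats lay above the vehicle median, and the ranges overlapped that of Vehicle. Log2 fold changes were 0.48 ± 0.27 for PDL1, 0.62 ± 0.25 for LY and 0.65 ± 0.24 for PDL1+LY, with adjusted p-values of 0.233 and 0.275 for the latter 2 by edgeR. Over all alternative settings these ran from 0.25 to 0.70, 0.41 to 0.86 and 0.54 to 0.88. Without 2 vehicle columns that had under 100 CPM of Cd3e (of rats P5 and P6), the PDL1 value was 0.28. These columns were chosen after the data had been seen, and Il2rg follows Cd3e across rats (below). A smaller value is a likely outcome of that choice, so nothing is read from it.

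Il21r varied widely among vehicle rats, from 109.9 to 1359 CPM with a median of 254, and rat P7 was the highest. LY rats had 376.3, 393.9, 913.7, 1426 and 1497 CPM and PDL1 rats 251.3, 436.7, 585.4, 751.5 and 1595 CPM, while rats given both had 189.7 to 1156 CPM (median 469). The groups overlapped. Log2 fold changes were 1.23 ± 0.61 for PDL1, 1.41 ± 0.57 for LY (adjusted p = 0.228, edgeR) and 0.31 ± 0.58 for PDL1+LY. Without P7 the LY value was 2.11, with an adjusted p of 0.0499, and without PDL1+LY rat P35 the last value was -0.11. Il4r had the same highest vehicle rat: Vehicle spanned 204 to 1736 CPM (median 390.0), LY 543.1, 819.6, 862.7, 1205 and 2463 CPM, PDL1 428.0, 636.9, 765.1, 916.4 and 1373 CPM, and PDL1+LY 540.1 to 1279 CPM (median 678). Its log2 fold changes of 0.74 ± 0.55, 1.08 ± 0.52 and 0.66 ± 0.52 for PDL1, LY and PDL1+LY became 1.31, 1.80 and 1.12 without P7, with none of them called.

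Il1rl1 came next to Il7r in PDL1+LY. The 6 rats had 472.3 to 911.5 CPM (median 799) against 143 to 765 CPM in Vehicle (median 303), a log2 fold change of 1.22 ± 0.39 (adjusted p = 0.251, edgeR). PDL1 rats had 251.6, 422.3, 446.0, 563.8 and 1088 CPM, and LY rats 135.0, 620.4, 715.4, 800.9 and 876.7 CPM, with 1 LY rat below every vehicle rat. Untreated tumours had the widest spread, from 134.8 to 1870 CPM.

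Il17ra and Il1rn were the other members of high leukocyte CPM. Il17ra had 133 to 307 CPM in Vehicle (median 214), 167 to 226 CPM in PDL1, 178 to 222 CPM in LY and 99.5 to 282 CPM in PDL1+LY, and 45.9 to 182 CPM in untreated tumours. Its log2 fold changes were -0.15 ± 0.19, -0.13 ± 0.18 and 0.02 ± 0.17. Il1rn spanned 54.2 to 225 CPM in Vehicle (median 109.4), and single rats were far higher elsewhere: 666 CPM in P33 of PDL1+LY and 810.4 CPM in the untreated rat C9. In C9 the summed CPM of 4 neutrophil markers was 47290, against medians of 35.3 in untreated tumours and 278 in Vehicle. Il1r2 was 639 CPM and Il1rap 207 CPM in that rat, the highest of all leukocyte rats for both.

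**Figure D3:**
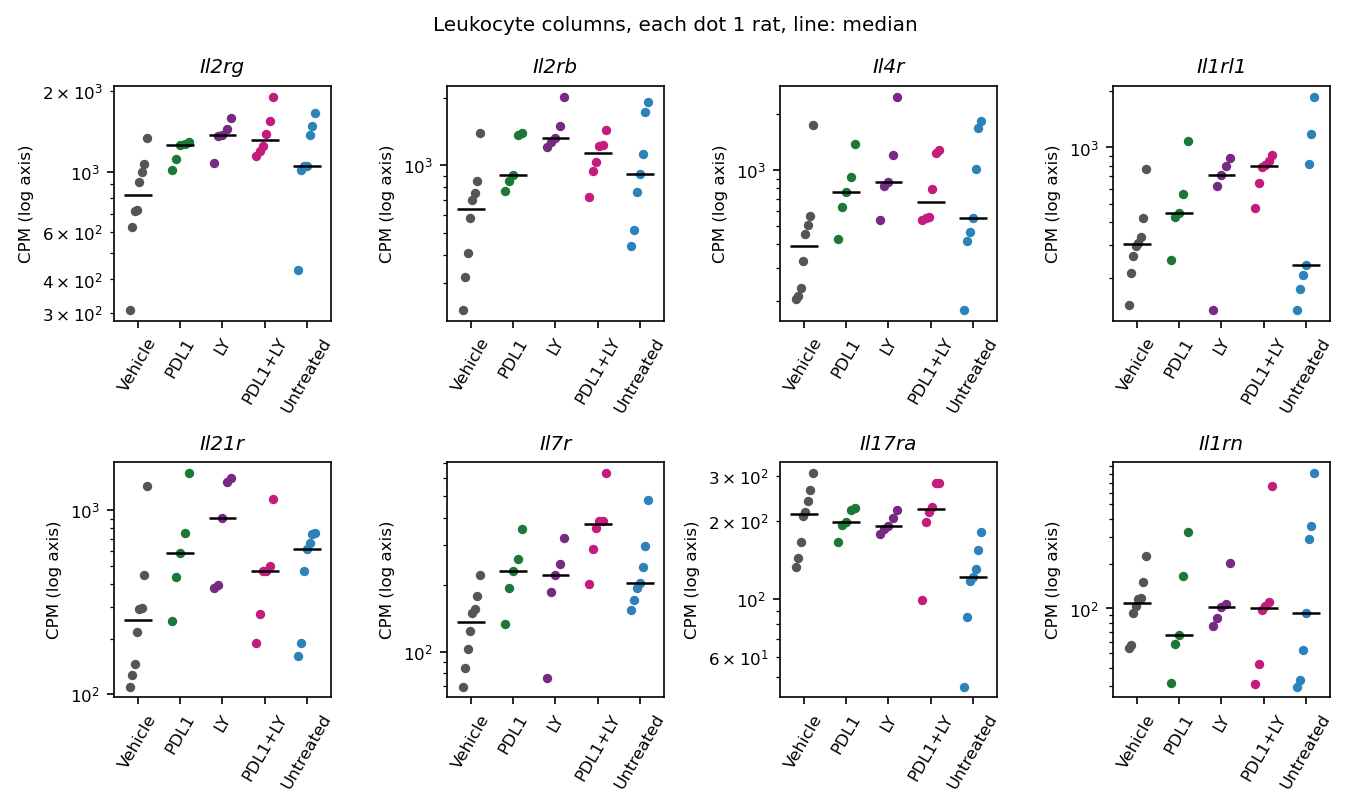
CPM (log axis) in leukocyte columns of the 8 members with the highest median CPM, by group. Each dot is 1 rat and each line the group's median. For Il7r 5 of the 6 PDL1+LY rats lie above all 8 vehicle rats. The treated and vehicle ranges overlap in every panel.

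Il11ra1 and Il17rc, both of low CPM in leukocytes, had the smallest p of the members in PDL1. Il11ra1 had 0.800 to 24.6 CPM in vehicle leukocytes (median 7.34), 0.803 to 3.75 CPM in PDL1, 0 to 4.40 CPM in LY and 0 to 2.79 CPM in PDL1+LY. A count of 0 in these rats allows up to 3 counts, or 0.244 CPM in LY rat P17 and 0.245 CPM in PDL1+LY rat P33, by counting error alone. Log2 fold changes were -2.09 ± 0.83, -2.40 ± 0.87 and -2.22 ± 0.80, with adjusted p-values of 0.236, 0.186 and 0.273 by edgeR. Il17rc had 1.59 to 7.79 CPM in Vehicle (median 3.32) and 0.669, 0.975, 1.17, 1.83 and 1.99 CPM in PDL1, a log2 fold change of -1.59 ± 0.58 (adjusted p = 0.206, edgeR). Both genes were higher in epithelial columns, at 73.2 CPM for Il11ra1 and 70.3 CPM for Il17rc. Of the epithelial markers in the same leukocyte columns, all 5 luminal and all 3 basal ones had fold changes below 0 for PDL1 (medians -0.65 and -1.60), with summed luminal CPM of 55.4 to 659 in Vehicle and 137 to 177 in PDL1 and summed basal CPM of 5.33 to 131 and 1.21 to 17.8. For LY, 3 luminal markers were below 0 and 2 above (median -0.27), with a summed median of 204.7 CPM against 194 CPM in Vehicle. For PDL1+LY all 5 were below 0 (median -0.81). The 3 basal markers were below 0 for LY and PDL1+LY (medians -0.63 and -1.17). All 4 fibroblast markers were below 0 for PDL1 (median -1.89) and for PDL1+LY (-2.12), while for LY 3 were below 0 and 1 above (-1.38). They summed to 72.9 CPM at the vehicle median and to 54.5, 12.9 and 7.26 CPM in leukocyte columns of PDL1, LY and PDL1+LY. The part of either marker list in the result was not tested.

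By fold change, Cd3e was higher and the macrophage markers were lower than in Vehicle in leukocyte columns of all 3 treatments, without passing the edgeR test. Cd3e, a T cell receptor component, had 212 to 936 CPM in Vehicle (median 649) and medians of 788, 955 and 966 CPM in PDL1, LY and PDL1+LY, with log2 fold changes of 0.49, 0.71 and 0.42. Csf1r, the receptor of macrophage growth factor, had 16.7 to 721 CPM in Vehicle (median 245) and medians of 77.6, 84.6 and 66.1 CPM, with log2 fold changes of -2.24, -1.91 and -1.17. All 6 macrophage markers had fold changes below 0 in each comparison, with medians of -2.78, -2.43 and -1.54. None of the 6 was called by edgeR, while DESeq2 called 5, 3 and 0 of them lower and voom 0, 0 and 5. Their summed level ran from 177 to 6346 CPM in Vehicle, 38.4 to 990.1 CPM in PDL1, 182 to 914 CPM in LY and 178 to 1596 CPM in PDL1+LY. The summed T cell markers, 5 of 5 measured, ran from 1064 to 4169, 3034 to 4558, 3488 to 4910 and 2354 to 5620 CPM. Their fold changes were above 0 for 5, 5 and 4 genes in PDL1, LY and PDL1+LY, with medians of 0.41, 0.21 and 0.20. Of 6 CD8 and NK cell markers 4, 6 and 2 were above 0, with medians of 0.07, 0.57 and -0.07 and none called by edgeR. The 3 B cell markers measured had fold changes above 0 each time, with medians of 2.62, 1.85 and 3.75, and summed to 3.15 to 31.4 CPM in Vehicle, 25.9 to 957 CPM in PDL1, 32.2 to 120.1 CPM in LY and 5.64 to 595.5 CPM in PDL1+LY. EdgeR called none of them, with a smallest adjusted p of 0.197 in PDL1+LY, where DESeq2 called all 3. The 4 neutrophil markers were below 0 each time, with medians of -1.42, -2.38 and -1.81 and none called by either tool, and summed to 69.5 to 2679, 1.34 to 809, 5.37 to 349.8 and 34.4 to 128 CPM. The 4 genes called in PDL1 leukocytes were all lower: Apoe (log2 fold change -3.55 ± 0.59, adjusted p = 0.0201), Gas6 (-2.49 ± 0.42, 0.0201), Trem2 (-4.67 ± 0.85, 0.0462) and Camk1 (-1.94 ± 0.29, 0.0114) by edgeR. Apoe and Trem2 are known from macrophages. None of the 4 was on a list set for this comparison, and they were named after their values were seen. The part of these marker levels in the values of the members, Il7r, Il2rb, Il2rg, Il21r and Il4r among them, was not tested.

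Grouped by family, the 7 common gamma chain and IL-4/IL-13 chains tested had median log2 fold changes of 0.73, 0.74 and 0.65 in leukocyte columns for PDL1, LY and PDL1+LY, with 6 of 7 above 0 each time and Il13ra1 below 0. The 7 chains of the IL-1 receptor family had medians of 0.15, 0.27 and 0.55. The 5 IL-17 receptors had -0.15, -0.13 and 0.36, and the 5 receptors of the IL-10 group -0.52, -0.01 and 0.22. The 5 chains of the IL-6 and IL-12 type had 0.67, 0.26 and 0.28. No family held a member called by edgeR, and the members that DESeq2 or voom called are those named above.

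Genes downstream of the receptors were read from 2 further lists. Of 15 JAK kinase, STAT and SOCS genes, 14, 15 and 14 had a log2 fold change above 0 in leukocyte columns for PDL1, LY and PDL1+LY, with medians of 0.54, 0.38 and 0.42. None was called by edgeR, with a smallest adjusted p of 0.11, and 7, 6 and 5 were higher at an unadjusted p under 0.05. In either direction that is 46.7%, 40% and 33.3% of the list, beside 15.4%, 16.4% and 13.9% of all genes. DESeq2 called 1 of them higher for PDL1 (Stat3) and 1 for LY (Stat4), and voom 0. Without vehicle rat P7, edgeR called 3 for PDL1 (Stat3, Stat4 and Stat5a) and 1 for LY (Stat4), all higher. Of 8 adaptors of the IL-1 and IL-17 receptors, 5, 7 and 8 were above 0, with medians of 0.35, 0.49 and 0.39 and none called by edgeR, DESeq2 or voom. Of 24 interleukin genes, 14, 12 and 17 were above 0, with medians of 0.20, -0.11 and 0.61. None was called by edgeR, whereas DESeq2 called Il15, which encodes a ligand of Il2rb and Il2rg, lower for LY (adjusted p = 0.000537), and voom called 2 genes for PDL1+LY (Il16 and Il18). The 9 partner chains had medians of -0.05, 0.06 and 0.04, with none called by edgeR or DESeq2 and 1 by voom (Csf2ra, lower, for PDL1+LY). In all genes 48.8%, 51.3% and 52% of fold changes were above 0.

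Across the 31 rats with leukocyte columns, some members followed Cd3e and others opposed it. Levels of 18 members with a median of at least 5 CPM were correlated with Cd3e and Csf1r on the log2(CPM + 1) scale, 36 pairs in all, with permutation p-values (two-sided) adjusted over the pairs. Rats were shuffled without regard to treatment group or batch, so differences between groups enter these relations and their p-values. Relations within treatment groups are not given. Il2rg followed Cd3e most closely, with a Pearson r of 0.86 and a Spearman rho of 0.70 (permutation p = 1e-05, the smallest that 100000 resamples can give, adjusted p = 0.00018). Within batches 1, 2, 3 and rats with tumours in both 2 and 3, r was 0.93, 0.92, 0.67 and 0.98, and it was 0.67 without the 2 rats farthest from the Cd3e median. Il2rb had an r of 0.73 and a rho of 0.70 with Cd3e (adjusted permutation p = 0.00024), with 0.64, 0.76, 0.82 and 0.91 within the batches and 0.67 without the 2 farthest rats. Il27ra and Il9r followed at 0.65 and 0.60.

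Il1r2 ran the other way, with an r of -0.60 and a rho of -0.68 with Cd3e (adjusted permutation p = 0.0031), and with -0.66, -0.76, -0.55 and -0.43 within the batches. Il21r was tied to Csf1r, with an r of -0.72 and a rho of -0.68 (adjusted permutation p = 0.00018), with -0.76, -0.77, -0.75 and -0.69 within the batches and -0.68 without the 2 farthest rats. Of the 36 pairs, 18 passed adjustment: 10 positive and 2 negative with Cd3e, 1 positive and 5 negative with Csf1r. The share of all genes related to Cd3e or Csf1r was not computed, so this count is not read as a trait of the members. Without the 2 farthest rats, the pairs of Cd3e with Il2rg, Il2rb, Il27ra, Il9r and Il1r2 still passed, and the other 7 with Cd3e did not. Of these, r went from -0.56 to -0.33 for Il3ra and lay between 0.13 and 0.31 for the 6 positive pairs. The pair of Il1rn with Cd3e, at -0.39 over all rats, passed at -0.56. The rats left out were the vehicle rat P6 and the untreated rat C2. All 6 pairs with Csf1r still passed without its 2 farthest rats, P8 and P28. Within single batches, of 7 to 10 rats, 0 pairs passed. Cd3e and Csf1r were themselves related, with an r of -0.55 and a rho of -0.53 (permutation p = 0.00147 and 0.00214). All levels share each rat's library, and the members are not independent of one another.

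**Figure D4:**
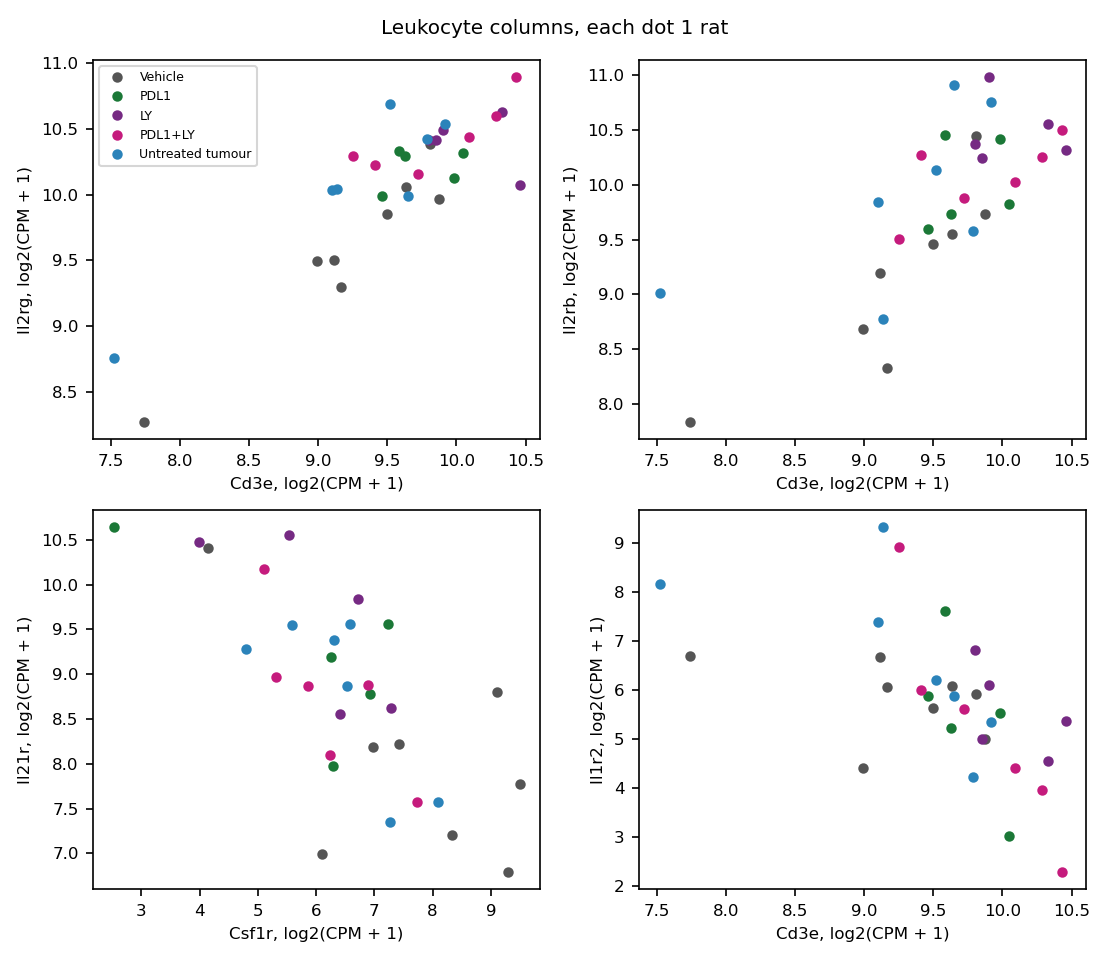
Log2(CPM + 1) of Il2rg and Il2rb against Cd3e, Il21r against Csf1r and Il1r2 against Cd3e in leukocyte columns, each dot 1 of 31 rats, coloured by group. Il2rg and Il2rb run upward (r of 0.86 and 0.73), Il21r and Il1r2 downward (-0.72 and -0.60).

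In epithelial columns no member was called either. Of 34 members tested among 13614 genes, 0 passed in PDL1, LY or PDL1+LY against Vehicle, beside 0% of all genes in each comparison (edgeR). DESeq2 called 1 member, Il27ra, lower for LY, where it called 1.02% of all genes, 136 of 137 of them lower. It called 0 members for PDL1 and PDL1+LY, beside 0.111% and 0% of all genes, and voom called 0 members and 0% of all genes in each. At an unadjusted p under 0.05 there were 3 members for PDL1 (1 higher, 2 lower), 2 for LY (1 and 1) and 1 lower for PDL1+LY, or 8.82%, 5.88% and 2.94% of the members beside 2.86%, 6.90% and 4.83% of all genes. Their median log2 fold changes were -0.15, -0.27 and -0.47. All 3 comparisons share the 7 vehicle rats. The sorted fraction was not in the fit, so any difference between groups in the share of DN columns cannot be told apart from treatment.

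No group stood wholly apart from Vehicle for the members of highest epithelial CPM, though single rats lay outside its range. Il17re had 47.6 to 132 CPM in Vehicle (median 110.2), 34.1 to 150.5 CPM in PDL1 (median 104.4), 78.1, 112.1, 122.7 and 154 CPM in LY and 27.7 to 127 CPM in PDL1+LY (median 100.2), and a median of 56.9 CPM in untreated tumours (21.5 to 87.01). Il17rc had the narrowest range of these genes, at 60.7 to 97.7 CPM in Vehicle (median 67.8), 57.4 to 124 CPM in PDL1, 58.7, 62.6, 86.4 and 91.1 CPM in LY and 49.2 to 100.5 CPM in PDL1+LY. Log2 fold changes for PDL1, LY and PDL1+LY were -0.04 ± 0.33, 0.28 ± 0.41 and -0.09 ± 0.36 for Il17re, and 0.14 ± 0.19, 0.09 ± 0.23 and 0.06 ± 0.20 for Il17rc. Neither gene differed from Vehicle by more than its standard error.

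Il11ra1 had 47.97 to 191 CPM in epithelial columns of Vehicle (median 95.7), 22.7 to 202 CPM in PDL1, 45.2, 56.2, 65.7 and 85.6 CPM in LY and 42.98 to 107.1 CPM in PDL1+LY (median 51.9), with log2 fold changes of -0.28 ± 0.34, -0.48 ± 0.42 and -0.55 ± 0.35. All 4 fibroblast markers had fold changes below 0 in these columns, with medians of -0.98, -1.91 and -2.01 and none called. Their part in the Il11ra1 values was not tested. Il4r had 40.8 to 307 CPM in Vehicle (median 78.1), 33.8, 51.99, 82.7 and 380 CPM in LY and 30.9 to 115 CPM in PDL1+LY (median 49.1), with fold changes of -0.42 ± 0.53, 0.75 ± 0.64 and -0.81 ± 0.53. Both spread more than 3-fold among vehicle rats. Il10rb had 19.6 to 53.4 CPM in Vehicle and 17.9 to 51.02 CPM over the treated groups. Il17ra had 34.7 to 80.2 CPM in Vehicle (median 47.4), 19.9 to 89.7 CPM in PDL1, 7.09, 31.2, 32.3 and 76.5 CPM in LY and 30.5 to 135 CPM in PDL1+LY, with LY rat P21 far below the vehicle range and PDL1+LY rat P33 above it. Log2 fold changes of both genes lay between -0.31 and 0.10 in all 3 comparisons.

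The smallest p of the members in epithelial columns was that of Il27ra in LY. Vehicle rats had 0.0387 to 3.42 CPM (median 2.47), and the 4 LY rats had 0, 0, 0.0240 and 0.433 CPM. A count of 0 in LY rats P19 and P21 allows up to 3 counts, or 0.317 and 0.300 CPM. The PDL1+LY rats had 0 to 0.800 CPM (median 0.243). The log2 fold change was -5.34 ± 1.65 for LY (adjusted p = 0.468, edgeR) and -3.02 ± 1.17 for PDL1+LY (adjusted p = 0.976), fitted values that depend on the prior count at these depths. Il27ra was 49.9 CPM in leukocytes, so these levels are at a small share of the leukocyte level. Ptprc in epithelial columns had medians of 12.6 CPM in Vehicle, 23.05 CPM in LY and 5.43 CPM in PDL1+LY. The part of leukocyte RNA in the Il27ra values was not tested.

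Il10ra, a leukocyte gene, had 0.264, 0.423, 7.44 and 16.7 CPM in epithelial columns of the LY rats, against 0.0774 to 3.71 CPM in Vehicle. Ptprc was 2.33, 5.07, 41.03 and 66.2 CPM in these 4 rats, in the same order. The log2 fold change was 2.99 ± 1.34 (adjusted p = 0.665, edgeR), and -0.08 without the epithelial columns that had at least 30 CPM of Ptprc. Among others, this filter drops LY rat P21 and both columns of tumour T1 of LY rat P17. It removes the columns where a leukocyte gene is likely to be high, so nothing is read from the second value. The part of leukocyte RNA in these levels was not tested. Il20rb, a chain of the IL-20 receptors of epithelia, had 1.74 to 19.4 CPM in Vehicle (median 6.06) and 1.08 to 5.30 CPM in PDL1 (median 2.26), a fold change of -1.63 ± 0.66 (adjusted p = 0.999). Il1rap had 19.96 to 76.3 CPM in Vehicle and 15.3 to 28.3 CPM in PDL1 (-0.60 ± 0.26, adjusted p = 0.999). Il13ra2, a decoy receptor for IL-13, had 0 to 6.21 CPM in Vehicle (median 1.38) and 0 to 1.12 CPM in PDL1+LY (median 0.127), a fold change of -3.27 ± 1.61 (adjusted p = 0.976, edgeR).

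Il1rl1 reached leukocyte levels in a few epithelial columns. It had 1308 CPM in tumour T3 of LY rat P17, 1072 CPM in T2 of PDL1 rat P24, 652 CPM in T1 of the untreated rat C2, 450.4 CPM in T2 of PDL1 rat P26 and 385 CPM in T1 of PDL1+LY rat P33. The 4 fibroblast markers summed to 37780, 39340, 74910, 45150 and 10320 CPM in these columns. Across the 32 rats with epithelial columns, Il1rl1 and the summed fibroblast markers had an r of 0.80 and a rho of 0.86 on the log2 scale, with 0.93, 0.09, 0.80 and 0.89 within batches 1, 2, 3 and 2 with 3. The relation did not hold within batch 2, which had 9 rats. A vehicle column of neither class, tumour T2 of rat P6, had 9.95 CPM of Il1rl1 with 220400 CPM of these markers. Il1r1 had an r of 0.80, Il1rl2 of 0.66, Il11ra1 of 0.63 and Il17ra of 0.62 with the same markers. For Il6r and Il4r it was 0.57 and 0.56, and for Il17rc and Il17re -0.04 and -0.43. Within batch 2 alone, Il1r1 had 0.20 and Il11ra1 0.86.

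With Ptprc, Il21r, Il2rg, Il7r and Il2rb had r of 0.88, 0.85, 0.77 and 0.62 across epithelial columns, while Il17rc and Il17re each had -0.43. Other members higher in leukocyte columns had lower r: 0.54 for Il1r2, 0.49 for Il18r1, 0.42 for Il1rl1, 0.32 for Il4r, 0.29 for Il6r and 0.28 for Il17ra. Ptprc and the fibroblast markers had an r of 0.15 and a rho of 0.30. The range of Ptprc in these columns was limited by the rule that set the class. These 46 pairs were chosen after the data had been seen, and are given as a description.

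Il13ra1, an IL-13 receptor chain outside the genes named by rule and chosen after its values were seen, differed between batches. Its median in epithelial columns of batch 3 was 25.6 CPM, 4.55-fold that of batch 2, and batch 2 columns had 2.47 to 12.8 CPM against 13 to 41.4 CPM in batch 3, with no overlap. In leukocyte columns the median of batch 3 was 10.4 CPM, 5.44-fold that of batch 2. Of all genes, 4.22% in epithelial and 1.65% in leukocyte columns were at least 4-fold higher in batch 3 than in batch 2. The share of all genes without overlap between these batches was not computed, so nothing is read from the missing overlap. Vehicle rats alone showed the same order: 5.87 and 8.08 CPM in batch 2 and 23.8, 30.8 and 36.7 CPM in batch 3 for epithelial columns, and 0.742 and 2.12 CPM against 7.67, 10.9, 14.8 and 17.5 CPM for leukocyte columns. By their labels, the epithelial columns of these vehicle rats are DN alone in batch 3, and DN and Ep in batch 2. Batch and sorted fraction therefore cannot be told apart there. With batch in the fit, the leukocyte log2 fold changes of Il13ra1 were -1.61 ± 0.65, -1.42 ± 0.66 and -0.62 ± 0.56, with none called.

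**Figure D5:**
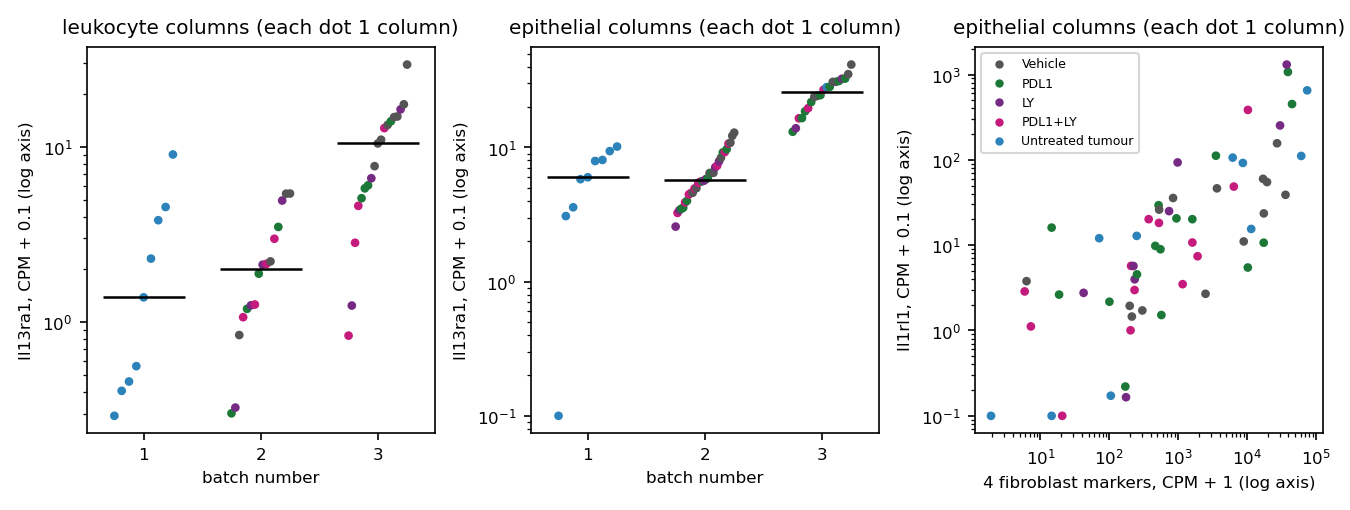
Il13ra1, CPM + 0.1 (log axis), by batch number in leukocyte (left) and epithelial (middle) columns, each dot 1 column coloured by group and each line the median, and Il1rl1 against the sum of 4 fibroblast markers in epithelial columns (right, both axes log). Il13ra1 columns of batch 3 lie above all those of batch 2 in epithelial columns, and the epithelial columns highest in Il1rl1 have high fibroblast markers. The 2 columns of neither class are not shown.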

How the data were processed

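RNA from sorted cells of rat mammary tumours had been amplified with the SMARTer v4 kit from under 10 ng, per the labels' protocols. The authors deposited 1 table of whole-number read counts per gene symbol. The submitters' processing notes name STAR, FastQC and rn6 and give no versions. The counting tool, annotation and strand setting are not given in the sources consulted, so reads of overlapping genes or close copies may be mixed. The deposited sample table gave each tumour's batch number, which is used as a label. No molecular identifiers are mentioned, so limits from a count of 0 cover counting error only.

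Of 108 columns, 13 were tied to a single sample by name, 94 to a treatment group, and 1 was not used. Treatment was given to the rat, so counts of a class were summed per rat. edgeR 4.0.16 (R 4.3.3, limma 3.58.1) was run with TMM scaling, filterByExpr, robust quasi-likelihood fits, batch (2, 3, or both) as a covariate and all 4 treatment groups in 1 fit per class, with a threshold of 0.05 after Benjamini-Hochberg adjustment. The highest correlation between columns was 0.990 and 0 pairs were identical. Simulated counts for PDL1 against Vehicle held 100 changed genes of each size, all with a mean above 5 CPM, and no batch effect. Among 11756 genes in leukocyte columns, the test recovered 87% of changes of 2 and 37% of changes of 1 on the log2 scale. Among 13273 genes in epithelial columns it recovered 78% and 26%. False calls numbered 2 and 5 in the 2 classes. Members of lower CPM are not covered by these shares. Alternatives were DESeq2 1.42.0, RLE factors, no filter, no batch term, single batches, 1 column per rat, limma voom with the rat as a random effect, only the groups compared, stricter classes and leaving out each rat.

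Values were given in full for the 8 members highest in leukocyte and the 6 highest in epithelial columns by median CPM, every called member and the 2 of smallest p in each comparison. The members and lists were chosen with earlier results of these data known. A row that matches the symbol pattern is not reported here. Il18rap, Il15ra, Il23r, Il19, Il27 and Tslp were on the lists and are not analysed here.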

Additional observations from a re-analysis of the deposited data

Results flagged for a closer look

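A rat was picked out where it lay far from the rest of its group, by Dixon's 95% criterion on log2(CPM + 1). Of 169 groups of 4 to 10 rats tested, 20 were picked out, and chance picks out about 1 in 20 groups.

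In leukocyte columns, Il2rg was lowest in the untreated rat C2 at 433 CPM, and Il1rl1 lowest in LY rat P17 at 135 CPM. PDL1+LY rat P33 was lowest of its group for Il17ra (99.5 CPM) and Il27ra (15.7 CPM). In the epithelial columns of the same rat, Il17ra (135 CPM) and Il1rl1 (385 CPM) were the highest of the group and Il17re (27.7 CPM) the lowest. Il20rb was highest in the untreated rat C9, at 0.498 CPM. Il13ra2, close to 0 in leukocytes, was picked out in Vehicle rat P6 (0.916 CPM), PDL1 rat P29 (0.0589 CPM), LY rat P22 (0.520 CPM) and PDL1+LY rat P31 (0.344 CPM), levels of few counts each.

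In epithelial columns, PDL1 rat P28 was highest for Il10ra (24.9 CPM) and Il7r (67.2 CPM). This rat has a column with at least 30 CPM of Ptprc. LY rat P17 was highest for Il27ra (0.433 CPM) and Il13ra2 (1.93 CPM), and PDL1+LY rat P23 for Il13ra2 (1.12 CPM). Among untreated rats, C10 was lowest for Il10rb (5.24 CPM) and highest for Il1rap (84.5 CPM), and C11 was lowest for Il1rn (0.288 CPM).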

How the results depend on the processing

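The count of called members was 0 in all 6 comparisons and stayed 0 under each alternative but these: DESeq2 called 1 member for PDL1 in leukocyte columns (Il17rc, adjusted p = 0.0463), 2 for LY (Il11ra1, 0.0386, and Il2rb, 0.0403), 1 for PDL1+LY (Il7r, 0.0223) and 1 for LY in epithelial columns (Il27ra, 0.0120), and limma voom called 2 for PDL1+LY in leukocytes (Il7r, 0.0273, and Il11ra1, 0.0439). Leaving out single rats gave 0 to 2 for LY in leukocytes, the 2 being Il2rb and Il21r without Vehicle rat P7. Over all genes, DESeq2 called up to 466 genes for PDL1 and 435 for LY in leukocytes and 15 and 137 in epithelial columns, voom up to 331 for PDL1+LY in leukocytes, and leaving out P7 gave 98 for PDL1 and 169 for LY. The cause was not tested. Of 27 fold changes under 652 settings, 5 reversed: Il10ra for LY in epithelial columns to -0.10 (batch 3 alone) and -0.08 (without columns of at least 30 CPM of Ptprc), and for PDL1+LY in leukocytes Il21r to -0.57 and Il4r to -0.33 (batch 2 alone) and Il21r to -0.11 (without rat P35, the lowest of -0.11 to 0.84 over single rats left out). The 18 related pairs became 0 in batch 1, in batch 2, in batch 3 and in batches 2 and 3 together, where fewer rats enter. Signs reversed in leukocytes for Il10ra (-0.08) and Il1rl1 (-0.09) with Cd3e in batch 3, Il17ra with Cd3e (-0.14) in rats of both batches, and in batch 2 Il18r1 with Cd3e (-0.04), Il2rg (0.07) and Il3ra (-0.09) with Csf1r. With fibroblast markers in epithelial columns of batch 2 they reversed for Il10rb (-0.01, and -0.08 in rats of both batches), Il17ra (-0.08), Il17re (0.37), Il1rl2 (-0.09), Il2rg (-0.17), Il4r (-0.29) and Il6r (-0.31), and for Il1r2 with Ptprc in batch 1 (-0.51). The class counts of 15 and 5 members were at most 17 (batch 3 alone) and 6 (batch 3 alone, and stricter classes). Batch 2 alone in the fits, leaving out columns by Cd3e or Ptprc and the epithelial relations were chosen after seeing the data. No paired analysis was possible because each rat had 1 treatment, replicate numbers are in accession order, and the comparison of classes comes from no test. The depth limits members under 1 CPM, where a few counts decide a value.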

Other observations

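Levels of some ligands, chosen after their values were seen, stood beside those of their receptors. Il33, the ligand of Il1rl1, had a median of 10.0 CPM in leukocyte and 238 CPM in epithelial columns, and Il18 had 34.9 and 111 CPM, while the receptor chains Il1rl1 and Il18r1 had their higher medians in leukocytes. Il17a had 33.4 CPM in leukocyte and 0.143 CPM in epithelial columns, the reverse of Il17rc. Il10 had 94.6 and 0.664 CPM, and Il1b 257 and 8.27 CPM. Of the shared chains, Il6st had 44.5 CPM in leukocyte and 187 CPM in epithelial columns, Osmr, the oncostatin M receptor, 0.469 and 57.3 CPM, and Csf2rb 91.7 and 7.35 CPM.

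The columns of neither class differed from each other. The untreated tumour T1 of rat C5, with 165 CPM of Ptprc, had 1746 CPM of Il2rb, 1312 CPM of Il2rg, 1095 CPM of Il4r and 526 CPM of Il21r, and 5446 CPM of summed T cell markers. Its Il7r was 13.7 CPM, under the lowest single leukocyte column at 26.3 CPM. The vehicle tumour T2 of rat P6 had 432 CPM of Il11ra1, 245 CPM of Il1r2, 47.5 CPM of Il17rc and 24.6 CPM of Il20rb. Il1rl1 was 9.95 CPM and Il17re 4.82 CPM in this column, with 220400 CPM of summed fibroblast markers and 46.5 CPM of summed luminal markers.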
